A study of Mus musculus with 8 samples.

Results

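Atf4 and 9 genes of the amino acid stress response (Atf5, Ddit3, Ddit4, Trib3, Asns, Chac1, Sesn2, Slc7a11 and Slc7a5) were examined for the accessibility of the chromatin at and around them in control and paused mouse embryonic stem cells. The genes were taken by name, and their peaks were those with a centre inside the span of the gene in GRCm38 or within 50 kb of it. Of 134407 peaks, 171 met this rule and none fell in the windows of 2 members. For 60 of them the member was the nearest protein-coding gene, and these are called the peaks of that gene below, while the other 111 lay nearer to another gene and were counted apart. The cells were wild-type E14 embryonic stem cells, 1 established line grown on gelatin in medium with serum and LIF. The medium of both groups also held added non-essential amino acids. For the control cultures the labels name no agent, and paused cultures were kept for 24 h with 200 nM of INK128, which blocks the mTOR kinase. Each group had 4 libraries of 50000 cells, measured by ATAC-seq, an assay that uses the Tn5 transposase to cut and tag open chromatin. The labels do not say whether the replicates were separate cultures, so p-values measure the spread between these libraries, which may be technical.

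Atf4 is a bZIP transcription factor that is controlled mainly through translation of its mRNA. When amino acids run short, uncharged tRNA activates the kinase Gcn2, phosphorylated eIF2 lowers general translation, and the Atf4 mRNA is translated more. mTORC1 also raises the amount of Atf4 protein in growing cells. Atf4 binds with C/EBP partners to a composite element in target genes for amino acid uptake, amino acid synthesis, tRNA charging and feedback on the stress response. Accessibility reports how open the DNA is, and is not a measure of transcript or of protein.

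The sequences below are those parts of the start-site peaks that lie within the 250 bases upstream of the listed start site. For Atf5 these are only 132 of the 201 bases of the peak, which lies wholly upstream of the nearer start site. All are read 5′ to 3′ in the direction of the gene and taken from RefSeq on GRCm38.p6. They are shown because Asns, Chac1 and Slc7a11 hold the core of the composite C/EBP-ATF element inside these peaks, and because the Atf5 peak was the only start-site peak to pass the test. Capitals mark matches to TGATGNAA, searched on both strands, so that a match on the opposite strand reads TTNCATCA. Asns is at chr6:7693210-7693341 on the minus strand, Chac1 at chr2:119351032-119351232 on the plus strand, Slc7a11 at chr3:50443614-50443715 on the minus strand and Atf5 at chr7:44815777-44815908 on the minus strand.
Asns: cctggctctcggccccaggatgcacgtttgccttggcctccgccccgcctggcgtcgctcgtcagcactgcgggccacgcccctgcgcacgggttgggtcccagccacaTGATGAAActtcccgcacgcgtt
Chac1: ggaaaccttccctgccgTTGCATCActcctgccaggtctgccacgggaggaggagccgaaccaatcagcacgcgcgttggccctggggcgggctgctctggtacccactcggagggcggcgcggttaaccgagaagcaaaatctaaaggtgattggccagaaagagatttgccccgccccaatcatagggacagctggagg
Slc7a11: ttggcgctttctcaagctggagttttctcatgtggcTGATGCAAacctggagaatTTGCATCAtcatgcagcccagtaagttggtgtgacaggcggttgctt
Atf5: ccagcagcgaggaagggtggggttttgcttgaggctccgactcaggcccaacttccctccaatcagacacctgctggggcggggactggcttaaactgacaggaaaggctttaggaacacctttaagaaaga

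The promoter table held 9 of the 10 members, all but Slc7a5, as windows of 300 bases from 250 before to 50 after the start site. The element was found in 4 of these 9 members. Its first base lay 23 bases before the start site of Asns and 193 bases before that of Chac1. Slc7a11 held 2 matches on opposite strands, starting 66 and 47 bases before its start site. In Trib3 the match began 14 bases after the start site, outside the peak assigned to that site. Of all 32851 promoter windows 3.97% held the element at least once, and 23 windows held it at least 2 times. The Slc7a11 window was also the poorest in G and C among the members, with 44.67% against a median of 52.67% over all windows, and it held 4 CpG dinucleotides against a median of 7. In the other member windows the G and C content ran from 54.67% to 69%, with 8 to 32 CpG. A match is a description of the letters and does not show that a factor was bound.

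Depth set the precision of every value. The deposited values are reads per 201 bp peak divided by 1 factor per library, and the recovered reads in peaks ranged from 4434037 in control 3 to 21161767 in control 1. The median peak held 91 reads in control 1 and 18 to 29 in the other 7 libraries, so control 1 stood apart in depth. The limit that a count of 0 allows, 3 reads, corresponds to 1.04 scaled reads in control 1 and 5.08 in control 3. Over all 127402 tested peaks the log2 change had a median of 0.10. This median is set beside the changes of the members, while every test and call was made against a change of 0. All 7 pluripotency genes looked at, from Pou5f1 to Tfcp2l1, had a peak within 2 kb of a gene end. The median value over these genes was 207 in control and 256 in paused libraries (control means 24.5 to 314, paused means 51.1 to 374). Esrrb was the lowest of them in both groups. Of the feeder fibroblast markers 5 of 6 had such a peak (control means 34.4 to 147, paused means 47.0 to 166), with none for Col3a1. Of the primitive endoderm markers 3 of 5 had one (control means 53.1 to 115, paused means 57.9 to 130), with none for Gata4 and Pdgfra. Open chromatin at a marker does not show that the gene is expressed, and the part of other cells in the results was not tested. A smaller share of cells with an open site and a less open site in every cell cannot be told apart in bulk libraries.

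The first comparison was of the start sites. Of the 10 genes 9 had a peak within 2 kb of the start site, or of a gene end for Slc7a5, whose start site was not analysed here. These were strong peaks, since 8 of the 9 lay above the 90th percentile of all tested peaks and only that of Slc7a11 lay lower, at the 50.5th percentile. In paused cells 1 of the 9, that of Atf5, was called higher and none was called lower. A peak was called where the Benjamini-Hochberg adjusted p of the limma-trend test on log2(value + 1), taken over all tested peaks, was under 0.05. Over all tested peaks 13.9% were called, 11.0% higher and 2.91% lower. The median log2 change of the 9 start-site peaks was 0.12, between the 0.10 of all tested peaks and the 0.20 of those with a mean of at least 100, of which 19.5% were called higher.

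Atf5, a bZIP factor related to Atf4 and likewise controlled through translation, had its start-site peak at chr7:44815777-44815977, inside the gene and 219 bp upstream of the nearer of its 2 listed start sites. The nearer end of Atf5 was 781 bp from the centre of this peak, and an end of another gene lay closer. The peak can therefore not be tied to Atf5 alone. The 4 control values were 248, 209, 212 and 200 scaled reads, and the 4 paused values were 246, 285, 309 and 326. Control 1 lay above paused 1, so the groups overlapped, while the other paused values were above every control value. The mean rose from 217 ± 21.1 to 291 ± 34.6 (SD, n = 4 in each group), a log2 change of 0.42 with an SE of 0.11 and a limma-trend adjusted p of 0.00958. The call ended when the reads were rescaled by TMM (log2 change 0.32, adjusted p = 0.0511) and when paused 4 was left out (adjusted p = 0.0605). It also ended with scaling to total reads, with loess correction (0.196), in edgeR with TMM (0.0671) and in DESeq2 (0.157).

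Slc7a5 (LAT1), which with Slc3a2 carries large neutral amino acids into the cell, had a peak 9 bp outside its higher-coordinate end. Control values were 133, 173, 124 and 132, and paused values were 202, 162, 164 and 177. Only control 2 reached into the range of the paused libraries. The change of 0.33 (SE 0.12) missed the threshold with a limma-trend adjusted p of 0.0644, and it passed when control 2 was left out (adjusted p = 0.0178), in edgeR with the deposited factors (0.0464), with the test limited to a mean of at least 50 reads (0.0417) and with the replicate number as a block (0.0406).

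For the other 7 genes the groups overlapped and none passed the limma-trend test on the deposited values. Sesn2, a leucine-binding inhibitor of mTORC1 signalling, had the strongest start-site peak, 88 bp upstream of the site, with control values of 344, 370, 352 and 354 and paused values of 403, 369, 408 and 396. All paused values but that of paused 2 lay above the controls, and the change was 0.15 (SE 0.10, adjusted p = 0.325). For Ddit4 (REDD1), which acts through the TSC complex to lower mTORC1 activity, the peak 97 bp upstream had control values of 308, 294, 323 and 328 and paused values of 288, 336, 420 and 347. Paused 1 was the lowest of all 8 and paused 3 the highest, and the change was 0.14 (SE 0.11, adjusted p = 0.416). For Ddit3 (CHOP), a C/EBP-family factor induced by Atf4, the peak 116 bp upstream had its centre inside the neighbouring gene Mbd6 and was counted as nearer to Mbd6. Its control values were 319, 279, 322 and 337 and its paused values 330, 328, 343 and 358, which overlapped (0.12, SE 0.10, adjusted p = 0.482).

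The peak 110 bp upstream of Chac1, a glutathione-degrading enzyme, had control values of 245, 264, 237 and 307 and paused values of 272, 262, 329 and 278. The groups overlapped, with a log2 change of 0.12 (SE 0.11, adjusted p = 0.518). At Asns, asparagine synthetase, the peak 32 bp upstream had control values of 201, 231, 261 and 263 and paused values of 223, 181, 225 and 239. The paused mean of 217 ± 24.8 was below the control mean of 239 ± 29.3, the groups overlapped and the change was -0.14 (SE 0.12, adjusted p = 0.462). This value turned into a call of lower when each library was corrected by loess on peak strength (-0.34, adjusted p = 0.0255). Trib3, a pseudokinase that feeds back on Atf4 and Ddit3, had its nearest peak 325 bp downstream of the start site, inside the gene. Control values of 163, 162, 149 and 150 and paused values of 158, 158, 163 and 168 overlapped, and the change was 0.05 (SE 0.11, adjusted p = 0.811). The listed start site of Slc7a11 (xCT), the cystine-glutamate exchanger, lay inside the gene span, at 50443613, and the span ended at 50499087. A weak peak 2 bp upstream of this site had control values of 32.8, 38.2, 35.6 and 44.1 and paused values of 35.8, 28.4, 24.8 and 38.7. These overlapped, on 16 to 95 reads per library, and the change was -0.25 (SE 0.20, adjusted p = 0.440). Among the start sites where the searched part of the peak holds the composite element, Asns, Chac1 and Slc7a11, none passed the test. The search was limited to the promoter windows. They covered 132 bases of the Atf5 peak and no part of the Trib3 peak, and Slc7a5 had no window.

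**Figure D1:**
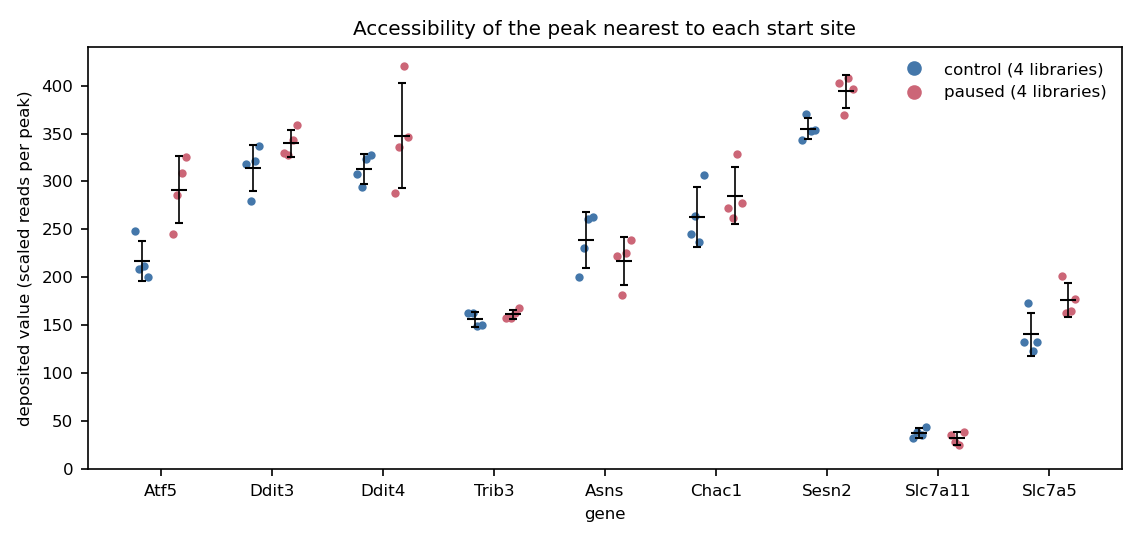
Deposited value (scaled reads per 201 bp peak, linear axis from 0) of the peak nearest to the start site of 9 genes, with each point 1 library, black bars the mean and SD of 4 control or 4 paused libraries. Control and paused values overlap in every gene, Atf5 included. The Atf5 mean rises from 217 to 291, the means of the other genes shift by less, and Slc7a11 lies far below the rest.

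The next comparison took all peaks of the member genes. Of the 60 peaks of the member genes 59 had a mean value of at least 10 and were tested; the other was a weak peak of Sesn2. In paused cells 9 of the 59 were called higher (15.3%) and 7 lower (11.9%), and without the start-site peaks 8 and 7 of 51. Over all tested peaks the shares were 11.0% and 2.91%. The calls fell in 7 of the genes, and none in Trib3, Ddit3 or Atf4. The groups did not overlap for 9 of the 59 on the higher side and 8 on the lower, against 13.0% and 4.36% of all tested peaks. The median log2 change of the 59 peaks was -0.14, against 0.10 for all tested peaks. The called higher peaks had mean values from 20.8 to 254 with a median of 34.4, and the called lower peaks from 11.0 to 115 with a median of 17.7. The authors' deposited table lists an FDR under 0.05 for 12 of the same peaks, 7 with a higher fold and 5 with a lower one. Peak strength moved with direction over the whole table: of peaks with a mean of 10 to 25, 3.57% were called higher and 4.09% lower, and of those of at least 100, 19.5% higher and 0.525% lower. Of the members' peaks 22 were in the weakest of these classes, with 2 called higher and 4 lower. In the class from 25 to 50, 5 of 18 were called higher and 1 lower, against 10.4% and 3.37% of all tested peaks of that class. From 50 to 100, 1 of 8 was called higher and 1 lower, against 18.1% and 2.1%. Of the 11 members' peaks of at least 100, 1 was called higher and 1 lower.

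**Figure D2:**
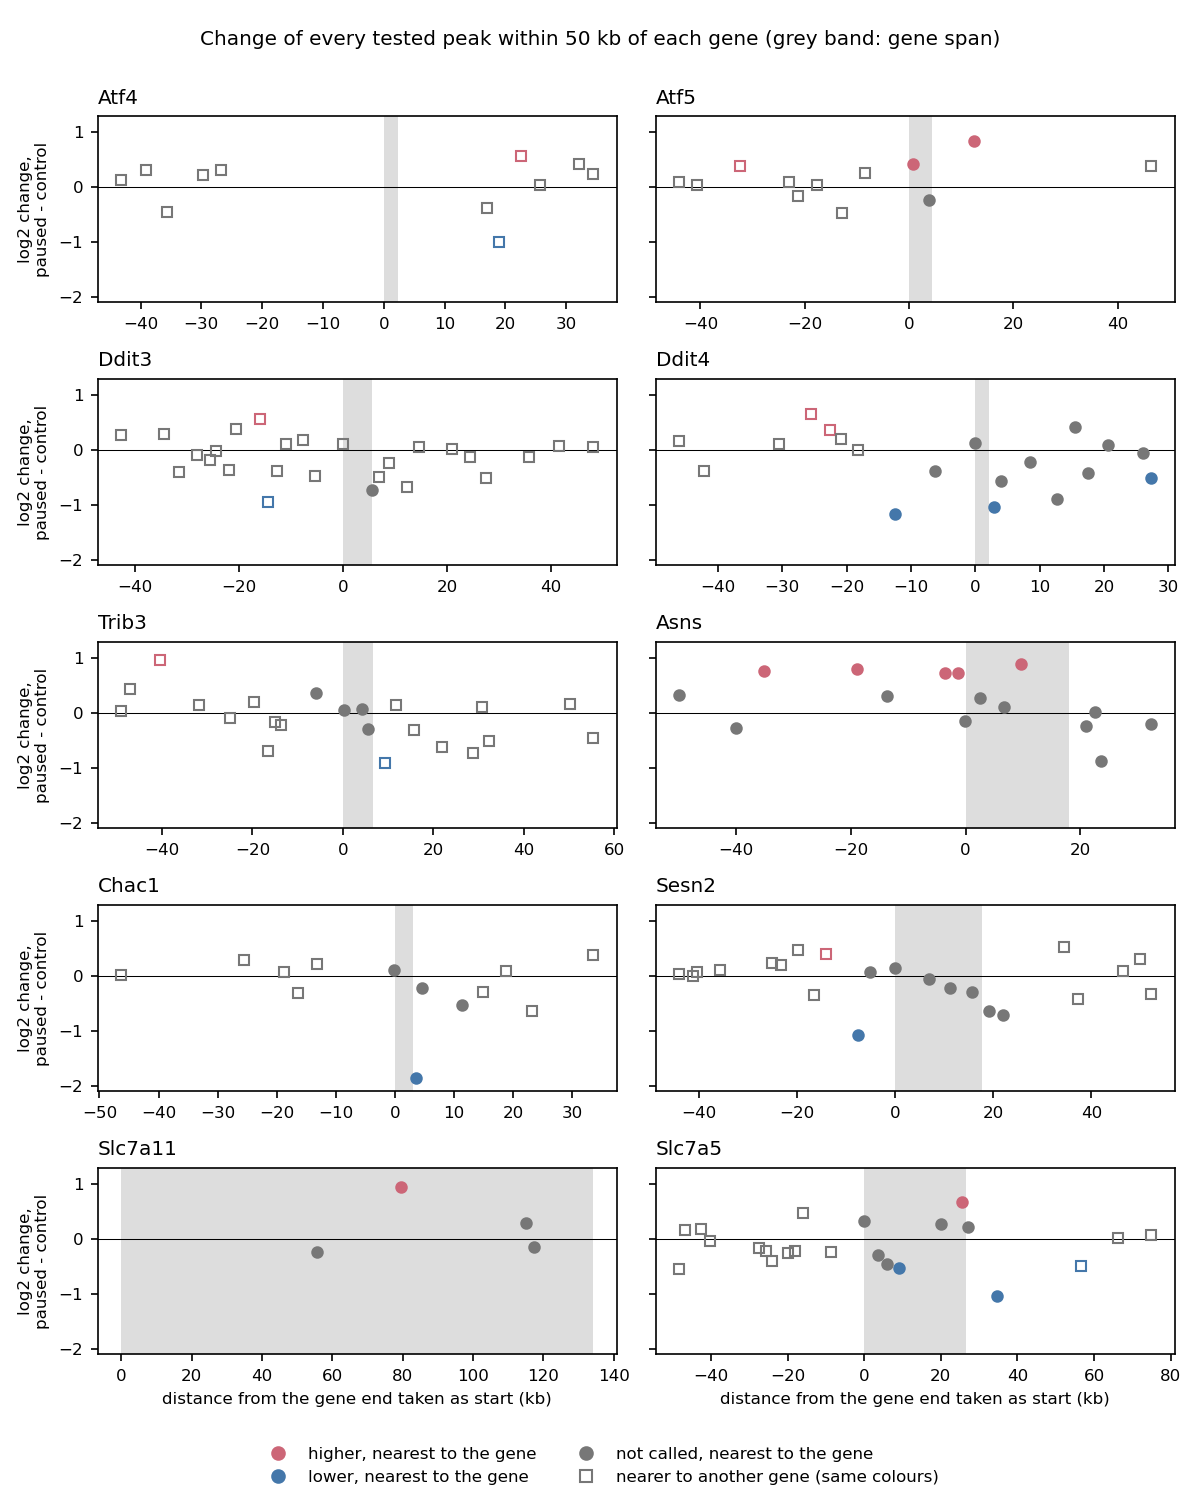
Log2 change (paused minus control) of every tested peak within 50 kb of each of the 10 genes against distance in kb from the gene end taken as start. The gene span is in grey, with filled circles for peaks nearest to the gene and open squares for peaks nearer to another gene. For Slc7a11 the end taken as start is at 50499087, while the listed start site used in the text lies inside the span at 50443613. Red marks called higher and blue called lower; higher peaks gather upstream of Asns, lower ones lie on either side of Ddit4, and no filled symbol stands at Atf4.

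Atf4 itself had no peak of its own. Its window on chromosome 15 held 11 peaks, all nearer to Cacna1i, Mgat3, Mief1 or Rps19bp1, and the nearest of the analysed peaks was 14633 bp beyond an end of the gene and 16994 bp from its start site. Of these 11, 1 was called higher and 1 lower. The higher one, starting at 80277606 and nearer to Cacna1i, went from a mean of 30.8 to 45.5 (log2 change 0.58, limma-trend adjusted p = 0.0407). The lower one, starting at 80274101 and nearer to Rps19bp1, went from 17.8 to 8.07 (-0.99, adjusted p = 0.0490). Both calls were fragile: the higher one held in 4 and the lower one in 8 of 17 alternatives, with adjusted p up to 0.415 and 0.180, and leaving out control 3, control 4, paused 1, paused 2 or paused 4 ended both, while leaving out any other library ended 1 of them. No statement on the accessibility of Atf4 itself can be drawn from these windows.

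Ddit3 likewise had few peaks of its own. Of 27 peaks in its window only 1, inside the gene and 5475 bp downstream of the start site, was assigned to it, and its centre also lay inside Mars1. The control values were 15.6, 10.8, 11.9 and 13.2, and the paused values were 4.61, 7.89, 10.9 and 7.03. Only paused 3 overlapped the controls, and the change of -0.73 (SE 0.37) had a limma-trend adjusted p of 0.188. Inside the neighbouring gene Dctn2 a peak starting at 127274720 rose from a mean of 87.2 to 128 (0.56, adjusted p = 0.00312), and one starting at 127276204 fell from 17.7 to 8.74 (-0.95, adjusted p = 0.0447). The first call held in 16 of 18 alternatives, ending with loess correction (0.0626) and in DESeq2 (0.0792). The second held in 8 of 17, ending there too and when any library other than paused 1 was left out.

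Trib3 had 4 peaks and none was called. The peak 5963 bp upstream of its start site came closest, with control values of 78.5, 75.2, 86.4 and 88.2 and paused values of 105, 99.4, 106 and 114. Control and paused values did not overlap, and the change was 0.37 (SE 0.13, limma-trend adjusted p = 0.0581). In its window a peak nearer to Nrsn2 rose from 21.3 to 41.0 (0.97, adjusted p = 0.00380) and one nearer to Rbck1 fell from 36.5 to 19.8 (-0.90, adjusted p = 0.0104). Each held in 16 of 17 alternatives; the first ended in DESeq2 (0.0892) and the second without paused 4 (0.0627).

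Beside its start-site peak, Atf5 had a called higher peak 11434 bp downstream of the start site and 8032 bp outside the gene. Its control values were 28.0, 22.7, 10.2 and 19.1, and its paused values were 38.1, 31.6, 29.5 and 41.0. No paused value reached down to the controls, the mean went from 20.0 ± 7.50 to 35.0 ± 5.41, and the change was 0.85 (SE 0.25, limma-trend adjusted p = 0.0183). The call ended without control 3 (adjusted p = 0.0999), without paused 1 (0.0532) or without paused 4 (0.0743). It also ended with scaling to total reads (0.0707), in edgeR with TMM (0.110) and in DESeq2 (0.263). The remaining peak of Atf5 was not called.

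Asns had the most called higher peaks, 5 of its 15, and none called lower. Every peak in its window was nearest to Asns, which among the other members held only for Slc7a11. The peak 18939 bp upstream of the start site, at chr6:7712048-7712248, had control values of 28.4, 34.6, 32.2 and 47.0 and paused values of 56.5, 56.8, 68.3 and 66.8. Every paused value was above every control value, and the mean went from 35.5 ± 8.08 to 62.1 ± 6.31 (0.81 on the log2 scale, SE 0.18, limma-trend adjusted p = 0.00187). Further out, the peak 35216 bp upstream, at chr6:7728325-7728525, had control values of 39.8, 40.6, 52.5 and 30.9 and paused values of 78.4, 72.5, 59.0 and 69.1. Here too the groups did not overlap, and the change was 0.77 (SE 0.17, adjusted p = 0.00198). Both calls held under every alternative in which the peaks were tested.

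The other called Asns peaks were weaker. The peak 9701 bp downstream of the start site, inside the gene, had control values of 12.8, 17.9, 18.6 and 13.2 and paused values of 19.6, 33.1, 26.4 and 44.5, on 9 to 38 reads. The groups did not overlap, and the change was 0.90 (SE 0.26, adjusted p = 0.0173), a call that ended without control 1 (0.0557), paused 2 (0.0530) or paused 4 (0.115), with total reads (0.0597) and in DESeq2 (0.0757). The peak 1362 bp upstream had control values of 19.0, 22.7, 25.4 and 36.7 and paused values of 35.8, 44.2, 38.8 and 52.7. Control 4 lay above paused 1, and the change was 0.73 (SE 0.21, adjusted p = 0.0179). The peak 3541 bp upstream went from a mean of 15.4 ± 2.77 to 26.2 ± 3.98 with no overlap (0.73, SE 0.25, adjusted p = 0.0470). The calls of these last peaks held in 11 and in 6 of the 17 alternatives in which each was tested. The one 1362 bp upstream ended without control 1 or paused 4, and the other when any library but control 2 was left out. The gene's strongest peak, at its start site, thus moved by -0.14 while 5 weaker peaks rose.

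Chac1 had 4 peaks, of which 1 was called lower. This weak peak lay 449 bp beyond the end of the gene, 3533 bp downstream of the start site, with control values of 15.6, 15.5, 11.8 and 23.5 and paused values of 0, 6.31, 10.9 and 4.69. The groups did not overlap, on 0 to 45 reads, and the value of 0 in paused 1 allows up to 3.46. The fitted change was -1.86 (SE 0.50, limma-trend adjusted p = 0.0100), and it moved to -1.12 when paused 1 was left out. The call ended without control 4 (adjusted p = 0.0518) and after loess correction (0.0536).

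Ddit4 had 12 peaks, of which 3 were called lower and none higher. The peak 12532 bp upstream of its start site, at chr10:59964202-59964402, had control values of 27.3, 23.9, 23.7 and 23.5 and paused values of 8.07, 9.46, 9.31 and 16.4. The groups did not overlap, and the mean fell from 24.6 ± 1.81 to 10.8 ± 3.78 (a change of -1.16, SE 0.29, limma-trend adjusted p = 0.00518), a call that held under every alternative tested. The peak 2900 bp downstream of the start site, 805 bp outside the gene, had control values of 16.2, 22.7, 25.4 and 25.0 and paused values of 11.5, 7.89, 12.4 and 9.37. Again no values overlapped (-1.04, SE 0.29, adjusted p = 0.0143), and of the alternatives only DESeq2 did not call it (0.0583).

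A stronger Ddit4 peak, 27282 bp downstream of the start site, had control values of 61.5, 77.6, 62.6 and 47.0 and paused values of 40.4, 45.7, 40.3 and 45.7. Control 4 stood only just above the paused libraries, and the change was -0.50 (SE 0.17, adjusted p = 0.0417). This call ended in DESeq2 and when any library other than control 4 was left out, with adjusted p from 0.0546 to 0.165. In the same window 2 peaks nearer to Anapc16 rose, from 65.1 to 103 (0.66, adjusted p = 0.00146) and from 132 to 169 (0.36, adjusted p = 0.0327). The first held in all 18 alternatives and the second in 9, ending without control 2, control 3, paused 2 or paused 4 and with each change of scaling other than the deposited factors. Sesn2 had 8 tested peaks of its own and 1 called lower, 7522 bp upstream of its start site. Control values were 15.2, 11.9, 22.0 and 16.2 and paused values were 6.92, 4.73, 4.65 and 15.2, on 3 to 44 reads. Paused 4 overlapped the controls, the change was -1.08 (SE 0.37, adjusted p = 0.0460), and the call held in only 7 of the 17 alternatives in which the peak was tested. It ended when any library other than control 2 or paused 4 was left out.

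Of the transporters, Slc7a11 had 4 peaks, all inside its span. The strongest, 61880 bp downstream of the listed start site, did not change by the test (control mean 40.5 ± 8.09, paused mean 36.5 ± 8.61, adjusted p = 0.653). The peak 24155 bp downstream, at chr3:50419358-50419558, had control values of 18.7, 15.5, 20.3 and 20.6 and paused values of 33.5, 41.0, 35.7 and 37.5. The lowest paused value stood above the highest control value, and the mean went from 18.8 ± 2.32 to 36.9 ± 3.19 (0.94, SE 0.22, limma-trend adjusted p = 0.00301). This call held under every alternative in which the peak was tested.

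Slc7a5 had 8 peaks, 1 called higher and 2 lower. The peak 8249 bp beyond its lower-coordinate end, at chr8:121872797-121872997, had control values of 33.5, 44.2, 37.2 and 35.3 and paused values of 21.9, 22.1, 14.0 and 14.1. All paused values were lower, and the mean fell from 37.6 ± 4.67 to 18.0 ± 4.61 (-1.05, SE 0.23, limma-trend adjusted p = 0.00184). A strong peak inside the gene, 9074 bp from its higher-coordinate end, had control values of 147, 102, 154 and 143 and paused values of 91.1, 83.6, 86.9 and 110. Control 2 lay below paused 4, and the change was -0.54 (SE 0.14, adjusted p = 0.00720). Both falls held under every alternative in which the peaks were tested.

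The called higher peak of Slc7a5 lay inside the gene, 914 bp from the lower-coordinate end, with control values of 19.4, 32.2, 23.7 and 32.3 and paused values of 45.0, 48.9, 34.1 and 44.5. The groups did not overlap (0.68, SE 0.21, adjusted p = 0.0233), but the call held in only 8 of the 17 alternatives in which it was tested. It ended without control 1, control 3, paused 1, paused 2 or paused 4. In all, 6 of the 16 called peaks kept their call in every alternative in which they were tested: 2 of Asns and 1 of Slc7a11 among the higher peaks, and 1 of Ddit4 and 2 of Slc7a5 among the lower ones.

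**Figure D3:**
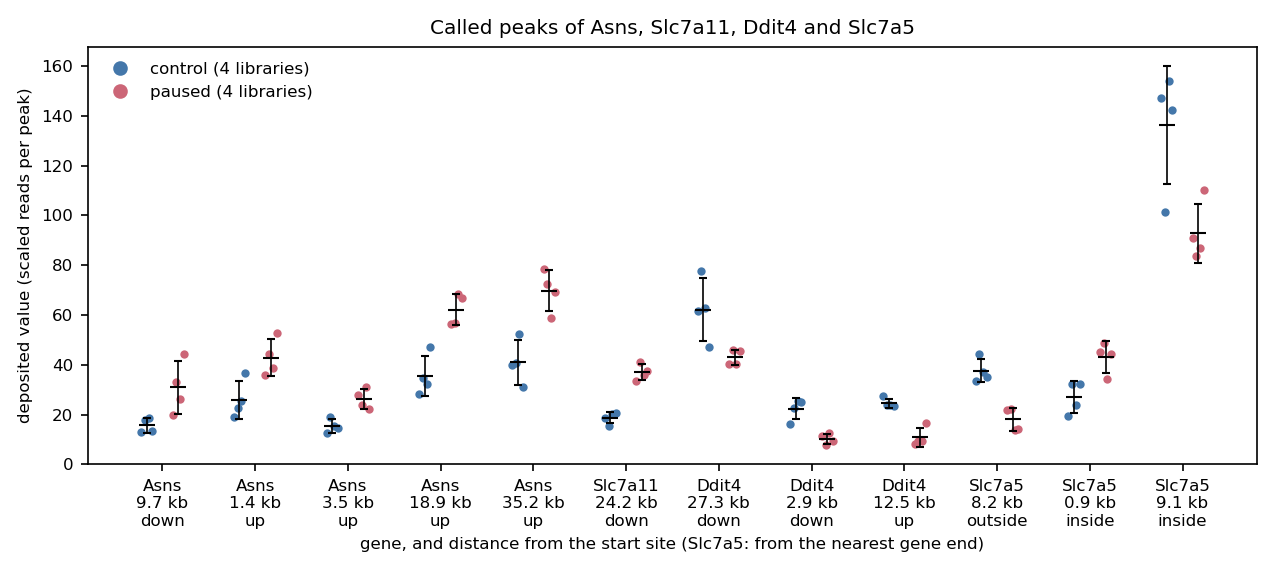
Deposited value (scaled reads per peak, linear axis from 0) of the called peaks of Asns, Slc7a11, Ddit4 and Slc7a5, labelled by distance in kb from the start site, or from the nearest gene end for Slc7a5. Each point is 1 library and the black bars are mean and SD of 4; the Asns and Slc7a11 peaks lie higher in paused libraries, the Ddit4 peaks lie lower, and the 3 Slc7a5 peaks move in both directions.

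Of the 111 window peaks nearer to another gene 107 were tested, and 7 were called higher (6.54%, against 11.0% of all tested peaks) and 4 lower (3.74%, against 2.91%). Beside those given above, a peak nearer to Tbc1d17 in the Atf5 window rose from 382 to 494 (0.38, limma-trend adjusted p = 0.0165). This call held in 11 of 18 alternatives, ending after TMM rescaling (0.0830), in DESeq2 (0.166) and without control 2 or paused 4, among others. In the Sesn2 window a peak nearer to Atpif1 rose from 193 to 255 (0.40, adjusted p = 0.0107), a call that held in 13 of 18 and ended after TMM rescaling (0.0623). In the Slc7a5 window a peak nearer to Gm42048 fell from 184 to 130 (-0.50, adjusted p = 0.00636), which held in all 18.

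To give each gene 1 level per library, the values of its own peaks were summed and compared over the 18109 genes with a mean sum of at least 10. Of the 9 members with a peak, Atf5 and Asns were called higher. Over all genes 31.0% were called, 29.6% higher and 1.40% lower, and the median log2 change was 0.15. The Atf5 sum was 313, 264, 261 and 247 in control and 313, 350, 366 and 391 in paused libraries. Paused 1 stood only just above control 1, and the mean went from 271 ± 28.6 to 355 ± 33.0 (0.39, SE 0.09, limma-trend adjusted p = 0.00239). With peaks given to the nearest gene end, which takes the start-site peak from Atf5, the Atf5 sum changed by 0.24 and was not called (limma-trend adjusted p = 0.227). The Asns sum was 598, 649, 728 and 776 in control and 805, 733, 734 and 902 in paused libraries, so that control 4 overlapped the paused range.

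The Asns sum changed by 0.21 (SE 0.08, adjusted p = 0.0373), close to the median of all genes. Its call ended without control 1 (adjusted p = 0.162), control 2 (0.0870), paused 1 (0.0679) or paused 4 (0.189), and with a window of 10 kb the change was 0.08 (0.502). Calls on gene sums depended on the scaling. Of all calls on gene sums 95.5% were higher with the deposited factors and 52.1% after TMM rescaling, which called 9.00% of genes (4.69% higher and 4.31% lower). After TMM rescaling the Atf5 sum changed by 0.24 (adjusted p = 0.0767) and the Asns sum by 0.06 (0.640), and neither was called.

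The Ddit4 sum was 791, 749, 787 and 808 in control and 638, 708, 816 and 757 in paused libraries. With the deposited factors it changed by -0.11 (adjusted p = 0.217), with paused 3 above all controls. After TMM rescaling it was called lower, at -0.25 (limma-trend adjusted p = 0.00638), and loess correction, scaling to total reads, edgeR with TMM and DESeq2 also called it lower. The Trib3 sum, 337 ± 7.33 in control and 366 ± 9.98 in paused libraries, did not overlap between groups but was not called (0.12, adjusted p = 0.241), and its sign turned after TMM rescaling (-0.03). The Sesn2 sum (0.03, adjusted p = 0.667) also turned (-0.11). Sums of Chac1, Slc7a5 and Slc7a11 changed by -0.01, -0.01 and 0.15, none of them called, and that of Ddit3, which is its single peak, by -0.73 (adjusted p = 0.0971). Only edgeR called the Ddit3 sum lower (-1.06, adjusted p = 0.0398 with TMM, and 0.0376 with the deposited factors).

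**Figure D4:**
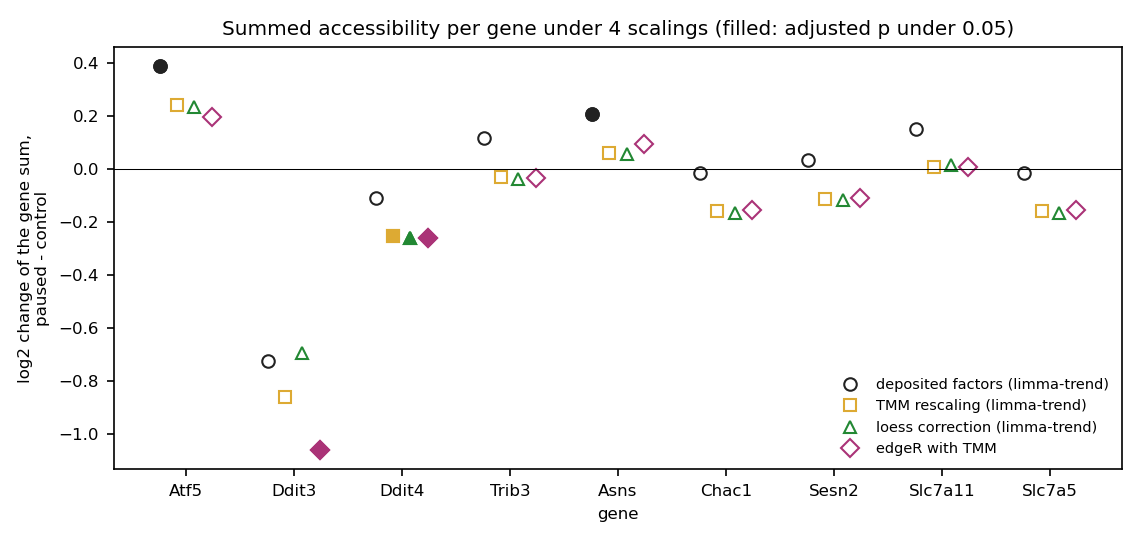
Log2 change (paused minus control) of the summed peak values of 9 genes under 4 ways of scaling and testing, with filled symbols for adjusted p under 0.05. With the deposited factors Atf5 (0.39) and Asns (0.21) are called higher, and with TMM rescaling only Ddit4 (-0.25, lower) is called; edgeR with TMM also calls Ddit3 (-1.06).

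Other genes of the same pathway were taken from 6 lists chosen by known function, 56 genes in all, of which 54 had a peak of their own. Of their 335 tested peaks 29 were called higher and 14 lower in paused cells, 12.8% in all (8.66% higher and 4.18% lower), beside 13.9% of all tested peaks (11.0% higher and 2.91% lower). Their median log2 change was 0.01. Among 53 start-site peaks 3 were called higher and none lower. The bZIP partners of Atf4 (5 genes) had 9 of 48 peaks called higher (18.8%), none lower and a median of 0.20. For Cebpb, a C/EBP partner of Atf4, the peak 24571 bp downstream of the start site went from 39.1 ± 4.18 to 81.1 ± 19.8 (1.01, limma-trend adjusted p = 0.000104). For Nfe2l2 (NRF2), a bZIP factor of the oxidative stress response, a peak 12200 bp upstream went from 27.7 ± 5.52 to 59.8 ± 15.3 (1.07, adjusted p = 0.000243). The start-site peaks of both genes were not called. Of the list genes named below only Cars had such a peak called, there taken at a gene end.

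The eIF2 kinases, phosphatases and sensors (9 genes) had 3 of 42 peaks called higher (7.14%), 2 lower (4.76%) and a median of -0.05. All tested peaks had shares of 11.0% higher and 2.91% lower. For Eif2ak3 (PERK), the eIF2 kinase of the endoplasmic reticulum, a peak 19912 bp upstream rose from 210 to 288 (0.45, adjusted p = 0.00467), a call that ended with scaling to total reads, with loess correction (0.0920) and in DESeq2 (0.0521). For Gcn1, a ribosome-bound activator of Gcn2, a peak 16568 bp downstream of the start site rose from 99.6 to 145 (0.55, adjusted p = 0.00502), which ended in the same settings (DESeq2 0.158) and in edgeR with TMM (0.0509). The other amino acid transporters (8 genes) had 5 of 76 peaks higher (6.58%), 6 lower (7.89%) and a median of 0.01. Slc3a2, the partner chain of both Slc7a5 and Slc7a11, had a peak 13896 bp upstream of its listed start site and 4424 bp from a gene end. This peak fell from 119 ± 17.6 to 64.9 ± 1.52 without overlap (-0.86, limma-trend adjusted p = 5.6e-05). Slc38a2, a sodium-coupled neutral amino acid transporter induced by starvation, had one 22706 bp upstream that rose from 152 to 237 (0.64, adjusted p = 0.000177). The start-site peaks of Slc3a2 and Slc38a2 changed by 0.19 and -0.13, and neither was called.

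The aminoacyl-tRNA synthetases, which charge tRNA, had 4 of 62 peaks called higher (6.45%), 1 lower (1.61%) and a median of -0.02. The lower one belonged to the cysteinyl-tRNA synthetase Cars (38.6 to 20.9, -0.91, adjusted p = 0.00757), whose peak at a gene end rose from 198 to 249 (0.34, adjusted p = 0.0390). The fall at Cars held in all 17 alternatives tested. The rise held in 7 of 18, ending after TMM rescaling (0.168), in DESeq2 (0.287) and when any library other than control 3 or control 4 was left out. A peak 11091 bp upstream of the threonyl-tRNA synthetase Tars rose from 19.5 to 33.8 (0.85, adjusted p = 0.0182), a call that held in 11 of 17 and ended in edgeR with TMM (0.0712), in DESeq2 (0.220) and without control 2, control 3 or paused 2, among others. Amino acid synthesis and one-carbon enzymes had 5 of 61 peaks higher (8.2%), 5 lower (8.2%) and a median of -0.01. For Got1, an aspartate aminotransferase, a peak 25541 bp downstream of the start site and 688 bp from a gene end rose (134 to 223, 0.71, limma-trend adjusted p = 8.4e-05). For Cth, which makes cysteine from cystathionine, a peak 7148 bp from a gene end rose (103 to 175, 0.75, limma-trend adjusted p = 0.000328). Other stress targets had 3 of 46 peaks higher (6.52%), none lower and a median of 0.04. The shares of all tested peaks were 11.0% higher and 2.91% lower. A peak 26876 bp upstream of Stc2, a secreted glycoprotein, went from 43.5 ± 6.18 to 89.1 ± 11.1 (1.02, adjusted p = 2.5e-05), and one 42411 bp upstream of Sesn3, a sestrin, from 161 to 208 (0.37, adjusted p = 0.0289). The Sesn3 call held in 8 of 18 alternatives and ended after TMM rescaling (0.125), in DESeq2 (0.235) and without control 1, control 3, paused 2, paused 3 or paused 4, among others.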

How the data were processed

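ATAC-seq of 4 control and 4 paused libraries was analysed from 1 deposited table of 134407 peaks. Per the submitters' processing notes, FastQC, Trim Galore, Bowtie2 2.4.1, MACS3 3.0.3 and DiffBind 3.16.0 were used with build mm10; their settings and the handling of the Tn5 offset are not given in the sources used here. Per library the authors deposited a signal, in which the reads of a peak are scaled by 1 factor: 100% of values were whole multiples of 1 step (tolerance 0.006), so reads were recovered. The authors also deposited log2 concentrations and a log2 fold, and the p-value and FDR of their comparison, used only where their table is named. The number of per-library columns left unused was 0.

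Values of the 127402 peaks with a mean of at least 10 were fitted, without covariates, by limma-trend (limma 3.58.1, R 4.3.3) on log2(value + 1), and gene sums likewise. The log2(value + 1) scale understates changes of weak peaks. Alternatives were a pseudocount of 0.1, no filter, a mean of at least 50 reads, TMM, total-read and loess scaling (span 0.3), edgeR 4.0.16 and DESeq2 1.42.0 on recovered reads, a replicate block, each library left out, assignment to the nearest gene end, and a 10 kb window. On recovered reads edgeR called 21046 peaks of the whole table with the deposited factors and 16142 with TMM. Gene spans, start sites and promoters are from RefSeq on GRCm38.p6 (21883 protein-coding genes). Exons and introns were not analysed here.

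The fits were tested on simulated data, with a fixed dispersion and only 200 peaks or genes changed at a time. In the real data 13.9% of tested peaks were called, and the adjusted p is stricter where few peaks change. The shares below therefore do not give what the fits recover in the real data. With 200 peaks moved by 1 on the log2 scale, limma-trend recovered 52.5% and called 2 unchanged peaks of 126852 tested; with 200 peaks changed by 0.5 it recovered 0 and edgeR 3. For gene sums changed by 0.5 it recovered 64% of 200 among 18092 genes.

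The members and lists were chosen with earlier results of these data known. Peaks named are, for each member, the start-site peak, the strongest peak and up to 3 called peaks with the smallest adjusted p, and for each list up to 2 called peaks (1 a gene) with the start-site peak of those genes. The other called peaks of Asns, the peak upstream of Trib3 and the called peaks nearer to neighbouring genes were named after their values were seen. Likeness to Atf4 could not be computed, since no peak was assigned to Atf4.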

Additional observations from a re-analysis of the deposited data

Results flagged for a closer look

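In groups of 4 libraries, 3 of the 114 tested held 1 library far from the others by Dixon's criterion, which chance gives for about 5% of groups. For the Ddit4 peak 12532 bp upstream of the start site, control 1 had a value of 27.31 against 23.51 to 23.89 in the other controls. In the paused group of the same Ddit4 peak, paused 4 had 16.4 against 8.07 to 9.46 in the others; the paused values remained below all controls. For the start-site peak of Got1, the aspartate aminotransferase, paused 1 had 361.07 against 436 to 451.1 in the other paused libraries.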

How the results depend on the processing

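Among the members' peaks the 16 calls became 6 with a mean of at least 50 reads (4 higher, 2 lower), where only 19 of the 59 peaks were tested, and 7 in DESeq2 (3 higher, 4 lower, where 4.55% of all peaks were called), and 10 to 18 when a library was left out, with 10 without control 1 and 10 without paused 4. TMM rescaling gave 13 (5 higher, 8 lower, beside 5.99% and 4.17% of all peaks) and scaling to total reads 12 (3 higher, 9 lower). Of all calls on peaks 79.0% were higher with the deposited factors, 58.9% after TMM rescaling and 45.5% with total reads. Of start-site peaks 1 was called: 2 with at least 50 reads, 2 in edgeR with deposited factors, 0 after TMM rescaling, 0 with total reads, 0 in edgeR with TMM and 0 in DESeq2, and 0 to 2 with a library left out (0 without paused 4, 2 without control 2). Of gene sums 2 were called: 1 each after TMM rescaling, total reads, loess correction, DESeq2, nearest gene end and 10 kb, and 1 to 2 with a library left out (1 without control 1, control 2, paused 1 or paused 4). The 43 calls of the pathway lists became 28 after loess correction, 16 in DESeq2 and 26 to 37 with a library left out (26 without control 1).

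Signs turned as follows for values that were not called. The start-site peak of Ddit3 gave -0.041 with total reads and -0.093 with loess, Ddit4 -0.017 and -0.069, Chac1 -0.040 and -0.092, and Sesn2 -0.0078 and -0.060. That of Trib3 gave -0.051 (TMM), -0.11 (total reads), -0.15 (loess), -0.069 (edgeR, TMM) and -0.067 (DESeq2). With loess, start-site peaks gave -0.021 for Eif2ak3, -0.0017 for Nfe2l2, -0.022 for Slc3a2, -0.014 for Tars, -0.013 for Got1 and -0.0083 for Cth. Gene sums gave -0.028, -0.033, -0.037, -0.035 and -0.034 for Trib3, and -0.11, -0.12, -0.12, -0.11 and -0.11 for Sesn2 (TMM, total reads, loess, edgeR with TMM, DESeq2). The Ddit3 sum gave 0.034 by nearest gene end. With a library left out, the Chac1 sum ran from -0.079 to 0.035, that of Slc7a5 from -0.050 to 0.021, and the Gcn1 start-site peak from -0.13 to 0.11. The cause of these changes was not tested.

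A block on the replicate number gave 19 member calls, 2 start-site calls, 2 gene sums and 49 list calls. Correlations over peaks were taken on the deviations of log2(value + 1) from the mean of each group. For same-numbered libraries they were all above 0 (0.079, 0.0358, 0.1328 and 0.0395) but not all above 0.1. Of the 12 other pairs 9 were below 0, which is no separate support, since the deviations of a group add to 0. Of the controls 3 of 4 correlated best with their own number, and control 2 did so with paused 1 (0.0703). This is a hint from the data, and the numbers are not taken as pairs. Weak peaks are limited by depth.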
